A study of Mus musculus with 16 samples.

Results

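The extracellular matrix and integrin genes of the mouse were described in azacytidine-treated NIH3T3 fibroblasts. Members were all probes whose single gene symbol named a collagen, laminin, matrix metalloproteinase, TIMP, integrin, ADAMTS or ADAMTS-like protein, lysyl oxidase, fibulin, fibrillin, thrombospondin, syndecan or glypican, or was Fn1, Sparc, Serpinh1 or Agrn. This gave 165 of 20355 probes and 104 of the 9930 genes with a symbol, of which 81 genes gave enough values to be tested. The choice went by gene symbol alone, and it was made with earlier results of these data known. It also took in Itgb1bp2, Itgb3bp and Itgbl1, whose symbols start like those of integrins but whose products are not integrin subunits.

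Matrix proteins such as fibronectin and the fibrillar collagens are secreted by fibroblasts and assembled into fibres outside the cell. Collagen chains need the chaperone HSP47, the product of Serpinh1, to fold in the endoplasmic reticulum, and lysyl oxidase crosslinks the finished fibres. Integrins, which are pairs of an alpha and a beta subunit, hold the cell to these fibres, while metalloproteinases and ADAMTS enzymes cut them and TIMPs inhibit the metalloproteinases. Oncogenic transformation of fibroblasts is known to lower fibronectin and collagen, and azacytidine, a cytosine analogue built into nucleic acids, traps DNA methyltransferases and lowers DNA methylation.

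The study used cDNA arrays on which treated cells were set against untreated cells of their own line, with a dye for each. All cells were NIH3T3, an established mouse fibroblast line. There were 8 arrays of Erbb2-transfected cells at 10 µM azacytidine, 4 of Erbb2-transfected cells at 5 µM and 4 of untransfected cells at 10 µM, with untreated Erbb2-transfected cells as the other channel for both Erbb2 groups and untreated NIH3T3 for the third. Erbb2 encodes a receptor tyrosine kinase that acts as an oncogene when overproduced, and no probe carried that symbol, so the transgene could not be checked. The labels give neither the vector, the number of clones, the hours of treatment nor whether the arrays stand for separate cultures, so p-values measure the spread between arrays, which may be technical.

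Values below compare treated with untreated cells as log2 ratios, and ± gives the standard error that limma fitted. A feature is a gene or a probe without a symbol, and it passed at a Benjamini-Hochberg adjusted p under 0.05 over 12420 features. The numerator of the deposited ratios is not stated. They were read as Cy5 over Cy3, and arrays with the treated RNA in Cy3 were turned in sign. In the untransfected group Fn1 had -1.634 and -1.582 as deposited with the treated RNA in Cy5, against 1.559 and 1.726 with it in Cy3, a change of sign with the dye that the Erbb2 arrays did not show for this gene. The shift that centring had applied to each array lay on the same side on 16 of 16 arrays, 8 of 8 with the treated RNA in either dye, as a fixed dye order would give. Fn1 passed in the untransfected group after turning, so its change of sign was bound to appear and gives no separate ground for turning. The shifts bear on whether arrays need turning, and neither they nor Fn1 tell which dye is the numerator. Cy5 over Cy3 is an assumption here, every direction given rests on it, and with Cy3 as numerator every sign would turn. Where no array was turned, 0 members passed in any comparison. Of 12420 features, 2 then passed in Erbb2 cells at 10 µM, 0 at 5 µM, 4 in untransfected cells and 0 between groups. The untransfected arrays name 1 dye for both channels, so channel 1 was taken at its label, and if that is wrong all signs of that group turn. Interquartile ranges per array were 0.706 to 1.36, and those of arrays 3, 5 and 6 of Erbb2 cells at 10 µM were the widest. These are bulk ratios, in which fewer expressing cells and less RNA per cell cannot be told apart, and with no intensities in the files no level or signal over background is known.

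The results below turn on 7 members. The promoters of 5 of them, from RefSeq, are shown here because the drug traps the enzymes that methylate cytosine in CG dinucleotides. For the others, Fn1 and Lox, no promoter entry could be used. Each promoter shown is 300 bases on build GRCm38.p6, from 250 before to 50 after the annotated start. It is written in the direction of transcription with every CG in capitals. Agrn and Sparc passed the test as higher in Erbb2 cells at 10 µM.
Agrn, chr4:156197439-156197738, minus strand: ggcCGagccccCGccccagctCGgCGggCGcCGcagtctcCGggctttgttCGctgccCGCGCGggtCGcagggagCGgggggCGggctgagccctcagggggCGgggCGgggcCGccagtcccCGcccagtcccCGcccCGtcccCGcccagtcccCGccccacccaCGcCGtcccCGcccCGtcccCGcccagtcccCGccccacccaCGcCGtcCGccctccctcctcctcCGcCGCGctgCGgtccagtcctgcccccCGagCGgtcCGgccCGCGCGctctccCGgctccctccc
Sparc, chr11:55420031-55420330, minus strand: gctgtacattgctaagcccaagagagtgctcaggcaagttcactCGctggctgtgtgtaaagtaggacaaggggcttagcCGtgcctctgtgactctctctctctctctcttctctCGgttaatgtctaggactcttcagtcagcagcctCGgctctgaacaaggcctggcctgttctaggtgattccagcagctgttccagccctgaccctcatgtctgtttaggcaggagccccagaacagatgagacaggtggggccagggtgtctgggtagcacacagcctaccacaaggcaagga
Col1a2 and Serpinh1 passed as lower in untransfected cells, and Itgb1 differed between the lines.
Col1a2, chr6:4505368-4505667, plus strand: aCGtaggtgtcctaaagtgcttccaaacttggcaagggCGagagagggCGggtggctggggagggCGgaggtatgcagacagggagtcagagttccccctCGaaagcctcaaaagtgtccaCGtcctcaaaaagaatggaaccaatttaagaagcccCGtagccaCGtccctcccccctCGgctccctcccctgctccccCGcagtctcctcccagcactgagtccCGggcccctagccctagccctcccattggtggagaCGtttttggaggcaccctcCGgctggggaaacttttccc
Serpinh1, chr7:99353190-99353489, minus strand: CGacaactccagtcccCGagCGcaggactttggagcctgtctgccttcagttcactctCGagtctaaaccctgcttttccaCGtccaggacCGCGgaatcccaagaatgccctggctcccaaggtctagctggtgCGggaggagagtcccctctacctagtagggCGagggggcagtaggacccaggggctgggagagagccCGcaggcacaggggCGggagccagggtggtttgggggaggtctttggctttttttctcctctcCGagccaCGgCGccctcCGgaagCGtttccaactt
Itgb1, chr8:128685404-128685703, plus strand: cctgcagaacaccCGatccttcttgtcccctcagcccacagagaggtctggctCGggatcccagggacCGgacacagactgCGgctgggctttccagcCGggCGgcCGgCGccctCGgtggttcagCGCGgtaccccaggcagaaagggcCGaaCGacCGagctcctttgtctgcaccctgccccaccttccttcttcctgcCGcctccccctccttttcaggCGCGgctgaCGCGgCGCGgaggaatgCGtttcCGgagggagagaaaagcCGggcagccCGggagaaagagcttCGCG

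The genes that rose differ widely in CG content. The Agrn window holds 42 CG, a number that 3.03% of the 32841 promoters in the table reach, and the Sparc window holds 4, which 68.6% reach. Itgb1 holds 27 CG (15.5% of promoters have at least as many), Serpinh1 16 (33.0%) and Col1a2 13 (37.9%). The GC-box letters GGGCGG, searched on both strands and found in 35.7% of all promoters, occur 12 times in Agrn, 2 times in Col1a2, 1 time each in Serpinh1 and Itgb1, and not in Sparc. CCAAT, in 37.4% of promoters, occurs 2 times in the Col1a2 window and in none of the other 4, and TATAAA, in 13.6%, is in none of the 5. Agrn has 1 further entry in the table, with another start. For a gene with several entries the one with the most CG was used, here and in the values below. Over the 54 tested members with an entry, Spearman's rho between CG count and log2 ratio was -0.01 for Erbb2 cells at 10 µM, 0.17 for 5 µM and 0.02 for untransfected cells, given as a description across genes. The median CG count of those members was 16, against 7 over all promoters. The latter counts every entry, so the medians are not of the same kind. No methylation was measured.

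Erbb2-transfected cells were first compared at 10 µM azacytidine with untreated cells of the same line. Agrn and Sparc rose and no member fell. Agrin, encoded by Agrn, is a heparan sulfate proteoglycan of basement membranes, and Sparc encodes a secreted glycoprotein that binds collagen. The remaining 79 tested members did not pass, fibronectin and the fibrillar collagens among them. Members passing were 2 of 81 (2.47%), beside 1.26% of all 12420 features (0.403% higher and 0.862% lower).

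Agrn (Entrez Gene 11603, chromosome 4) ran from 0.527 to 1.634 with a median of 0.798 over the 8 arrays. Every array lay above 0. The fitted value was 0.90 ± 0.14, or 1.87-fold, with a Benjamini-Hochberg adjusted p of 0.00299 in limma. At 5 µM Agrn had 0.707, 0.752, 0.536 and 0.448, and in untransfected cells at 10 µM it had 0.536, 0.66, 0.62 and 0.263. All 16 arrays of the study were thus above 0, but the fitted values of 0.61 ± 0.19 at 5 µM (adjusted p = 0.431, limma) and 0.52 ± 0.19 in untransfected cells (adjusted p = 0.254, limma) did not pass. The value rests on 1 probe. The other Agrn probe gave too few values to be kept and differed in sign, with -1.348, -0.805, -2.344 and 0.545 on the 4 arrays of Erbb2 cells at 10 µM that measured it.

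Sparc (20692, chromosome 11) ran from 0.314 to 1.034 with a median of 0.627 at 10 µM. Its 3 probes gave 23 values in that group, all above 0. The fitted value was 0.68 ± 0.11, or 1.61-fold (adjusted p = 0.00335, limma). The mean was 0.465 with the treated RNA in Cy5 and 0.9 with it in Cy3. At 5 µM Sparc had 0.167, 0.65, 0.328 and 0.305, or 0.36 ± 0.15 (adjusted p = 0.674, limma), and in untransfected cells it had -0.03, -0.228, 0.126 and 0.122. The 8 arrays of Erbb2 cells at 10 µM lay above all 4 untransfected arrays, and so did the 4 arrays at 5 µM, which overlapped those at 10 µM.

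**Figure D1:**
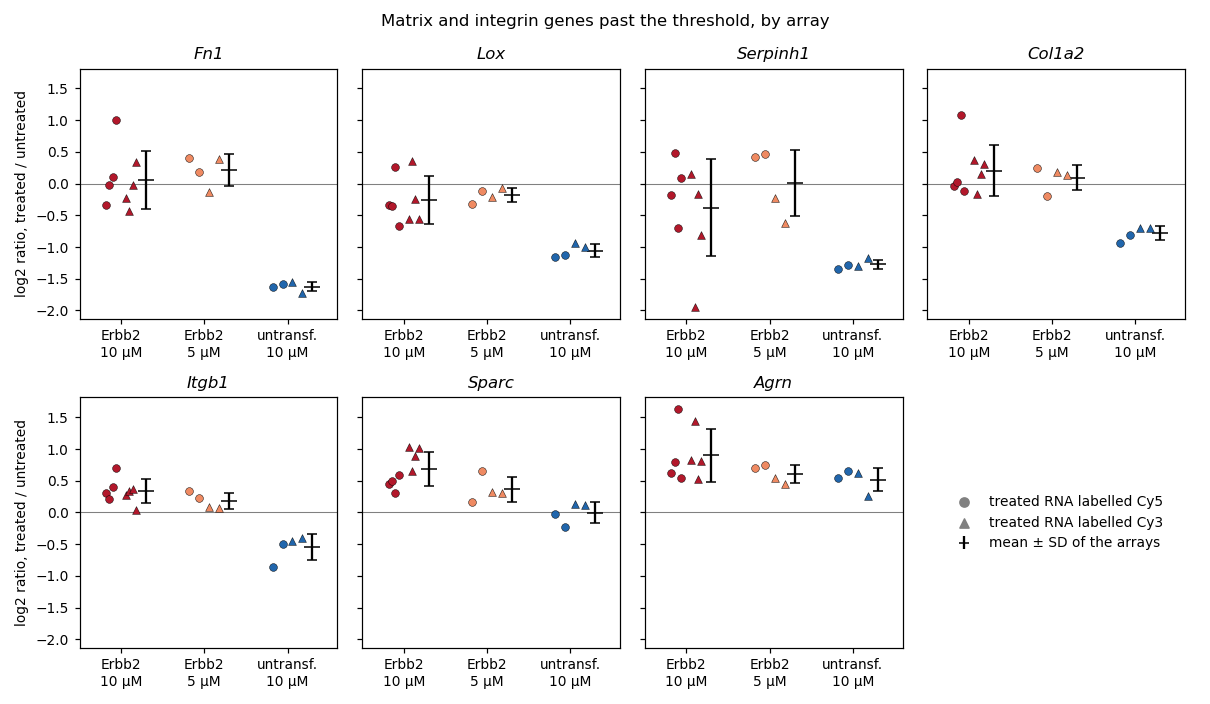
Log2 ratios of treated over untreated cells for the 7 members that passed in any comparison, 1 point per array, with the mean and SD of each group as bars, in Erbb2 cells at 10 µM, Erbb2 cells at 5 µM and untransfected cells at 10 µM. The 4 untransfected arrays of Fn1 sit between -1.726 and -1.559, below all Erbb2 arrays, while every point of Agrn is above 0.

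Several members had values of similar size and did not pass. Col16a1, a collagen associated with fibrils, was above 0 on 8 of 8 arrays, from 0.133 to 1.701, with a fitted value of 0.73 ± 0.17 (adjusted p = 0.0586, limma). Itgb7, an integrin beta subunit known from lymphocytes, had 1.25 ± 0.34 over 6 arrays (adjusted p = 0.147, limma). Itga2, the alpha subunit of a collagen receptor, had 1.51 ± 0.61, a value carried by 4.493 and 5.91 on arrays 3 and 5. Fbln2, a fibulin of elastic fibres and basement membranes, had -1.21 ± 0.51, with a median of -0.32 and -5.902 on array 6. Mmp13, a collagenase, had -1.29 ± 0.56, with arrays from -5.643 to 1.269. Arrays 3, 5 and 6 are the widest of the study. Without them the same number of members passed in this group, beside 57 of 12420 features in place of 157.

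At an unadjusted p under 0.05, 16 of 81 members (19.8%) had a difference, 10 higher and 6 lower, beside 10.8% of features. The median of the members was 0.052 and that of all features -0.003. By family, 14 of 23 tested collagens were above 0 with a median of 0.16, and 8 of 14 integrins with a median of 0.06. The 4 TIMPs were all above 0, between 0.19 ± 0.33 for Timp3 and 0.36 ± 0.36 for Timp4. Of 7 metalloproteinases 2 were above 0, with a median of -0.15 that was 0.01 after scaling the arrays to equal spread. The 5 members with 1 sign on every array (6.17%, beside 3.35% of features) were Agrn, Sparc, Col16a1 and Itgb1 above 0 and Col2a1, the cartilage collagen, below it with -0.48 ± 0.21 (adjusted p = 0.413, limma).

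At 5 µM no member passed in Erbb2 cells, where 0.209% of all features did (0.177% higher and 0.0322% lower). The smallest adjusted p among members was 0.431 in limma, for Agrn, and 3 of 81 (3.7%) had an unadjusted p under 0.05, beside 6.33% of features. These were Agrn, Sparc and Adamts17, an enzyme of the ADAMTS family, with 0.60 ± 0.27. Integrin genes were above 0 for 10 of 14, with a median of 0.21, and 6 of them on every array. Among all 81 members 17 (21%) had 1 sign on every array at 5 µM, 10 above and 7 below 0, beside 18.5% of features, 8.3% above and 10.2% below. Itga3, an alpha subunit of laminin receptors, had 0.53 ± 0.26 (adjusted p = 0.823, limma), and Itga2 had 0.80 ± 0.87. Collagens split 13 above and 10 below 0. The lowest collagen was Col5a2, a chain of fibril-nucleating collagen V, with -0.73 ± 0.40 and every array below 0. Mmp14, a membrane-bound metalloproteinase, had -1.65 ± 1.02, with -6.662 on array 1. Both doses were set against untreated Erbb2-transfected cells, and whether they share untreated RNA is not given, so their values stand side by side.

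The doses were compared directly as 10 µM minus 5 µM, and 0 of 12420 features passed in limma, members included. At an unadjusted p under 0.05 there were 2 members, 2.47% beside 4.33% of features. Itgal, an integrin alpha subunit of leukocytes, differed by -0.94 ± 0.38 and Col12a1, a fibril-associated collagen, by -1.85 ± 0.84. Agrn differed by 0.29 ± 0.24 and Sparc by 0.32 ± 0.18. The smallest adjusted p among members was 0.998 in limma, and the median standard error of a member was 0.39, so a difference of the size seen for Agrn or Sparc was not detectable for most members.

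Untransfected cells were next compared at 10 µM with untreated NIH3T3 cells. Fn1, Lox, Serpinh1 and Col1a2 fell, and no member rose. They encode fibronectin, lysyl oxidase, the collagen chaperone HSP47 and the alpha-2 chain of collagen I. Members passing were 4 of 81 (4.94%), beside 2.73% of all features (0.596% higher and 2.13% lower). The median of the members was 0.06, beside 0.03 for all features, and 44 of 81 members lay above 0. At an unadjusted p under 0.05 there were 9 members (11.1%), 3 higher and 6 lower, beside 11.5% of features. Among members above 0 on every array, Adamtsl1 ran from 0.184 to 1.183 with a mean of 0.819, and Itgb2l from 0.349 to 0.861. Neither passed.

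Fn1 (14268, chromosome 1) had -0.339, -0.028, 0.111, 1.01, -0.228, -0.431, -0.019 and 0.342 in Erbb2 cells at 10 µM, and 0.403, 0.188, -0.137 and 0.386 at 5 µM. In untransfected cells it had -1.634, -1.582, -1.559 and -1.726. Both Erbb2 groups scattered around 0 and did not overlap with the untransfected arrays. The fitted value in untransfected cells was -1.63 ± 0.20, which is 3.08-fold lower than in untreated cells (adjusted p = 0.000396, limma). The 5 Fn1 probes gave 37 values in Erbb2 cells at 10 µM, 20 above and 17 below 0, and 20 values in untransfected cells, all below 0, from -1.985 to -1.256.

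Lox (16948, chromosome 18) ran from -0.668 to 0.355 with a median of -0.347 in Erbb2 cells at 10 µM and had -0.316, -0.115, -0.209 and -0.065 at 5 µM. In untransfected cells it had -1.157, -1.123, -0.941 and -1.001, below all Erbb2 arrays. The fitted value there was -1.06 ± 0.18, which is 2.08-fold lower (adjusted p = 0.0041, limma), and all 12 values of its 3 probes were below 0. In Erbb2 cells at 10 µM the probes disagreed. Probe 20301 was below 0 on all 8 arrays, from -1.515 to -0.437, and fell by 0.83 on the log2 scale (adjusted p = 0.0014 over single probes, limma), while the other two had 0.01 ± 0.18 and 0.06 ± 0.25. At 5 µM the same probe had -0.893, -0.902, -0.609 and -0.144. This probe was therefore below 0 on all 16 arrays, and the platform annotation gives all 3 the same transcript.

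Serpinh1 (12406, chromosome 7) ran from -1.952 to 0.48 with a median of -0.168 in Erbb2 cells at 10 µM and had 0.415, 0.461, -0.229 and -0.619 at 5 µM. In untransfected cells it had -1.349, -1.288, -1.298 and -1.167, or -1.28 ± 0.29, which is 2.42-fold lower (adjusted p = 0.0248, limma). The lines overlapped through 1 Erbb2 array, that at -1.952. Col1a2 (12843, chromosome 6) ran from -0.16 to 1.083 with a median of 0.082 in Erbb2 cells at 10 µM and had 0.247, -0.189, 0.184 and 0.136 at 5 µM. In untransfected cells it had -0.936, -0.804, -0.706 and -0.695, or -0.79 ± 0.19, which is 1.72-fold lower (adjusted p = 0.0403, limma). The lines did not overlap for Col1a2. Both calls were narrow. Leaving out each of the 4 untransfected arrays in turn, Serpinh1 had adjusted p-values from 0.0543 to 0.142 and Col1a2 from 0.113 to 0.171 in limma, while Fn1 and Lox passed each time.

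**Figure D2:**
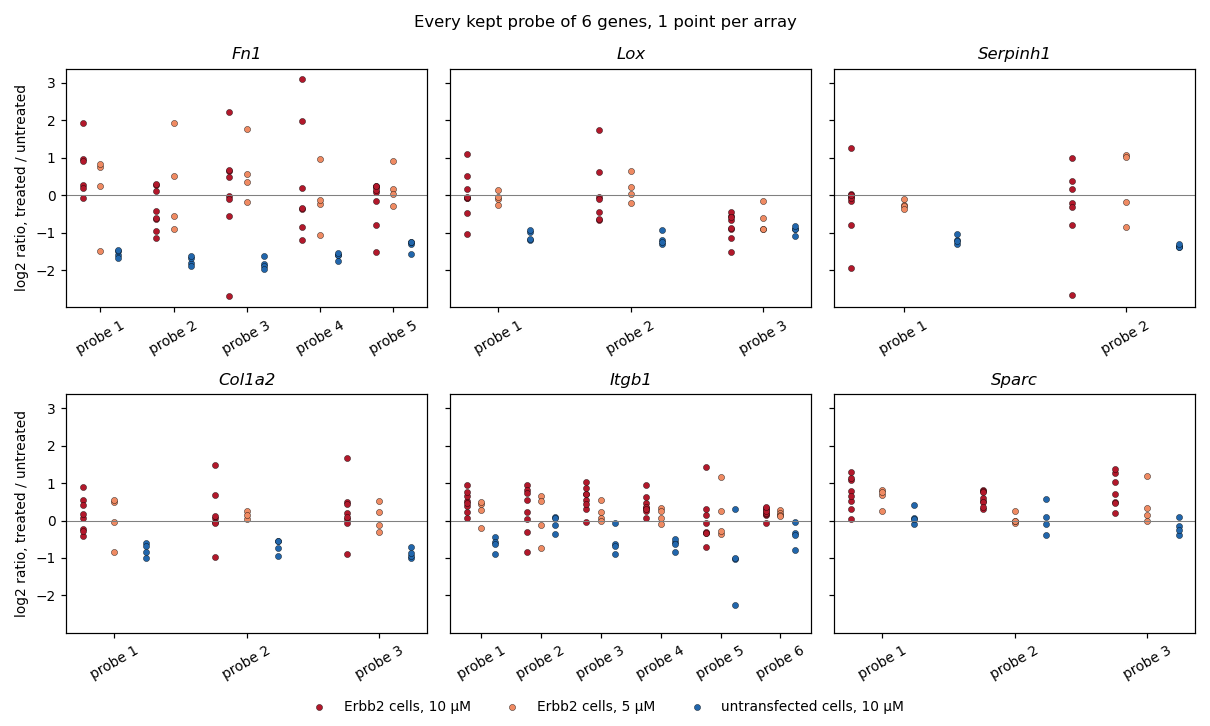
Log2 ratios of treated over untreated cells for each kept probe of 6 members, 1 point per array, in Erbb2 cells at 10 µM, Erbb2 cells at 5 µM and untransfected cells at 10 µM. The last Lox probe drawn is probe 20301, below 0 in all groups. The 20 Fn1 values of untransfected cells lie between -1.985 and -1.256, whereas the 37 values of Erbb2 cells at 10 µM spread on both sides of 0.

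Other genes with related roles did not pass. Col1a1, whose chains pair with those of Col1a2 in collagen I, had -0.26 ± 0.21 in untransfected cells, with its arrays from -0.85 to 0.722, and Col3a1, the chain of fibrillar collagen III, had -0.31 ± 0.32. The collagen V chains Col5a1 and Col5a2 had -0.69 ± 0.34 and -0.65 ± 0.40. Their probes differed widely in size, from -2.461 to -0.036 over 3 probes of Col5a1, and -1.24 and -0.062 for the 2 of Col5a2. Of 23 collagens 11 were above and 12 below 0, with a median of -0.03. The other lysyl oxidases gave -0.36 ± 0.40 for Loxl1, 0.51 ± 0.22 for Loxl2 and 0.59 ± 0.98 for Loxl3. In a list of 16 symbols of collagen-modifying and secretion genes, 11 were measured and 0 passed in any comparison, with a median of -0.29 in untransfected cells. That list holds P3h1 also under its older symbol Lepre1. Plod3, a lysyl hydroxylase, had -0.74 ± 0.34 there.

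Among receptors, Itgb1, the beta subunit shared by most fibronectin and collagen receptors, had -0.852, -0.493, -0.456 and -0.395 in untransfected cells. The fitted value was -0.55 ± 0.15 (adjusted p = 0.067, limma). All 6 probes had fitted values below 0, and 21 of their 24 array values were. Among its alpha partners, Itgav had -0.46 ± 0.50, Itga6 0.53 ± 0.27 and Itga3 0.22 ± 0.26, and none passed. Itga5, the alpha subunit of the main fibronectin receptor, has no probe here. Adamts1 had -0.60 ± 0.20 (adjusted p = 0.185, limma), and Mmp14 had -0.55 ± 1.02 with all 4 arrays between -0.63 and -0.322. Sdc2, a cell-surface heparan sulfate proteoglycan, had -1.17 ± 0.62 and split by dye, with means of -2.284 in Cy5 and -0.051 in Cy3. TIMP values lay between -0.07 and 0.13.

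Over all probes, arrays of the same group were only weakly correlated, and the groups differed in how closely their arrays agreed. For pairs sharing a dye, the mean correlation was highest in the untransfected line, with 0.109. The 5 µM group had 0.0516 and the Erbb2 group given 10 µM had 0.0257. Spearman's rho for these pairs averaged 0.179, 0.115 and 0.0611 in the same order. For pairs of opposite dye the mean correlation was -0.0529, -0.00267 and 0.00388 in that order, and rho averaged -0.129, -0.0139 and -0.00313. The median over members of the SD between arrays was 0.792 for Erbb2 cells at 10 µM, 0.43 for 5 µM and 0.356 for untransfected cells. Members with 1 sign on every untransfected array numbered 27 (33.3%, 13 above and 14 below 0), beside 25.5% of features. Among 29 genes with several kept probes, 15 had probes of 1 sign in Erbb2 cells given 10 µM, 14 in those given 5 µM and 20 in the untransfected line. The fit shares 1 estimate of the spread, and when each group was fitted on its own arrays 0 of 12420 features passed in untransfected cells.

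Other genes of the matrix and of adhesion gave no call in any comparison. These were 13 measured genes from a list of 29 symbols of further matrix proteins, 10 of 20 focal adhesion genes, 8 of 15 genes of TGF-beta signalling and 9 of 14 pericellular proteases. The first list holds Ccn1 and Ccn2 also under their older symbols Cyr61 and Ctgf, so it names fewer genes than symbols. In Erbb2 cells at 10 µM the TGF-beta genes had a median of 0.31 with 7 of 8 above 0, among them the receptor Tgfbr2 with 0.68 ± 0.24, against -0.82 ± 0.34 in untransfected cells. Ctsb, the lysosomal protease cathepsin B, had 0.66 ± 0.16 in Erbb2 cells at 10 µM (adjusted p = 0.0614, limma). Plau, urokinase, had 0.63 ± 0.17 in untransfected cells (adjusted p = 0.0727, limma). Tnc, tenascin C, had 1.48 ± 0.67 there.

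Markers of cell types were followed as ratios. In both Erbb2 groups 0 markers of any of 4 lists passed. Of 7 measured fibroblast markers, Col1a2 and Vim, the intermediate filament vimentin, passed as lower in untransfected cells, where 2 of 7 were above 0 and the median was -0.31. Col1a1, Col1a2 and Col3a1 on that list are themselves members, and that median is the value of Col3a1. The list is thus no separate readout. Vim had -0.28 ± 0.10 in Erbb2 cells at 10 µM (adjusted p = 0.289, limma), -0.61 ± 0.14 at 5 µM (adjusted p = 0.151) and -0.55 ± 0.14 in untransfected cells (adjusted p = 0.0493), and its difference between the lines at 10 µM was 0.27 ± 0.17 (adjusted p = 0.666). Thy1, a surface protein on the same list, had 0.51 ± 0.41 in untransfected cells, Pdgfrb 0.009 ± 0.861 and Pdgfra -0.504 ± 0.435. Of 6 epithelial markers, the keratin Krt8 rose in untransfected cells by 1.13 ± 0.27 (adjusted p = 0.0359, limma), with 5 of 6 above 0 and a median of 0.69, and Krt8 had 0.67 ± 0.27 in Erbb2 cells at 5 µM (adjusted p = 0.658, limma). The 2 measured endothelial markers disagreed in untransfected cells. Cdh5 fell there by 1.08 on the log2 scale (adjusted p = 0.000361, limma), while Pecam1 had 1.106 ± 0.525 (adjusted p = 0.443, limma). Between the lines Cdh5 differed by 1.14 ± 0.16 (adjusted p = 0.0028, limma) and Pecam1 had -0.952 ± 0.643 (adjusted p = 0.688, limma), with the opposite sign. Of 3 blood markers Tyrobp fell in untransfected cells by 0.68 (adjusted p = 0.0376, limma), while Lyz2 had 0.39 ± 0.44 and Ptprc 0.22 ± 0.30, and the median was 0.22. Their part in the matrix values was not tested, and no marker's level can be given.

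The lines were compared at 10 µM as the response of Erbb2 cells minus that of untransfected cells. Fn1 and Itgb1 responded higher in Erbb2 cells, and no member lower. Members passing were 2 of 81 (2.47%), beside 0.813% of all features (0.628% higher and 0.185% lower). Fn1 differed by 1.68 ± 0.25, or 3.2-fold (adjusted p = 0.00361, limma), with a 95% interval from 1.15 to 2.21. Itgb1 differed by 0.88 ± 0.18, or 1.84-fold (adjusted p = 0.0313, limma), with a 95% interval from 0.50 to 1.27. Itgb1 ran from 0.044 to 0.707 in Erbb2 cells at 10 µM, all 8 above 0, against -0.852 to -0.395 in untransfected cells. The groups therefore did not overlap, and of the 48 probe values in Erbb2 cells 39 were above 0.

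The call on Fn1 stood in 12 of 12 fits that each left out 1 array, with adjusted p-values from 0.00224 to 0.0229 in limma. That on Itgb1 was lost in 8 of 12 such fits, with adjusted p-values from 0.0338 to 0.139. Both depend on the dye labels of the untransfected arrays. Read the other way, Fn1 differed by -1.57 (adjusted p = 0.00155, limma) and Itgb1 by -0.22 (adjusted p = 0.754, limma).

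All 8 Erbb2 arrays lay above all 4 untransfected arrays for 5 members, namely Col1a2, Fn1, Itgb1, Lox and Sparc, beside 2.09% of features, and all below for 0 members, beside 0.902%. The differences of the remaining 3 did not pass. Col1a2 differed by 0.99 ± 0.23 (adjusted p = 0.08, limma), Lox by 0.79 ± 0.22 (adjusted p = 0.156, limma) and Sparc by 0.68 ± 0.18 (adjusted p = 0.13, limma). Serpinh1 differed by 0.89 ± 0.35 (adjusted p = 0.389, limma) and Agrn by 0.38 ± 0.24 (adjusted p = 0.66, limma). The fall of Lox, Serpinh1 and Col1a2 in untransfected cells and the rise of Sparc and Agrn in Erbb2 cells are thus not shown to differ between the lines.

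**Figure D3:**
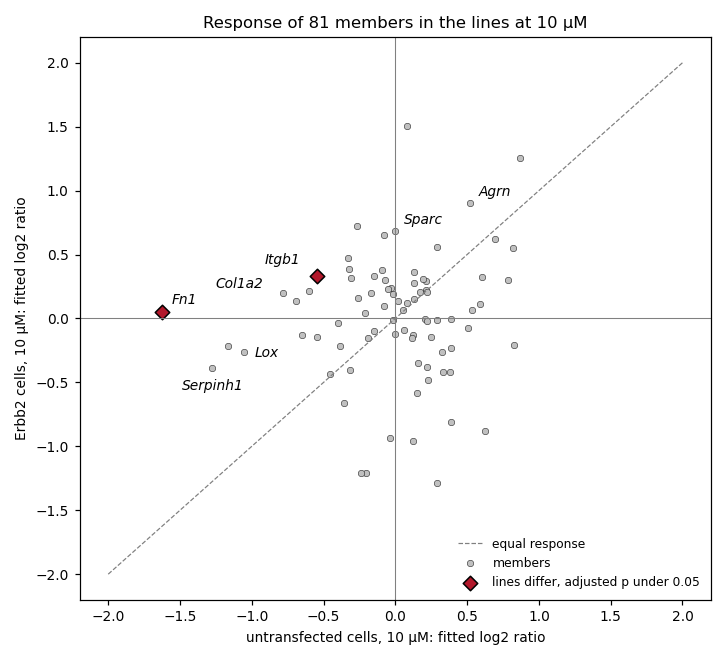
Fitted log2 ratio of each of the 81 tested members in Erbb2 cells at 10 µM (vertical) against untransfected cells at 10 µM (horizontal), with the line of equal response. Fn1 lies at 0.05 and -1.63, and Itgb1 at 0.33 and -0.55, both marked as differing between the lines.

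A further 23 members gave too few values to be tested. They were Adamts7, Adamtsl2, Col4a2, Col11a2, Col14a1, Col25a1, Fbln1, Gpc1, Itga4, Itga9, Itgad, Itgae, Itgb1bp2, Itgb3bp, Lama3, Lama4, Lama5, Mmp3, Mmp7, Mmp11, Mmp12, Mmp17 and Thbs1. Mmp3, the metalloproteinase stromelysin, was measured on 8 arrays of Erbb2 cells at 10 µM, from -2.364 to 3.61, but on 2 arrays at 5 µM. Thbs1, the secreted adhesion protein thrombospondin 1, was measured on 4, 3 and 2 arrays of Erbb2 cells at 10 µM, Erbb2 cells at 5 µM and untransfected cells. Lamb1, Itga5, Sdc4 and Fbn1 have no probe under these symbols. Over all member probes 11.4% of values were missing, against 12.4% of all values.

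**Figure D4:**
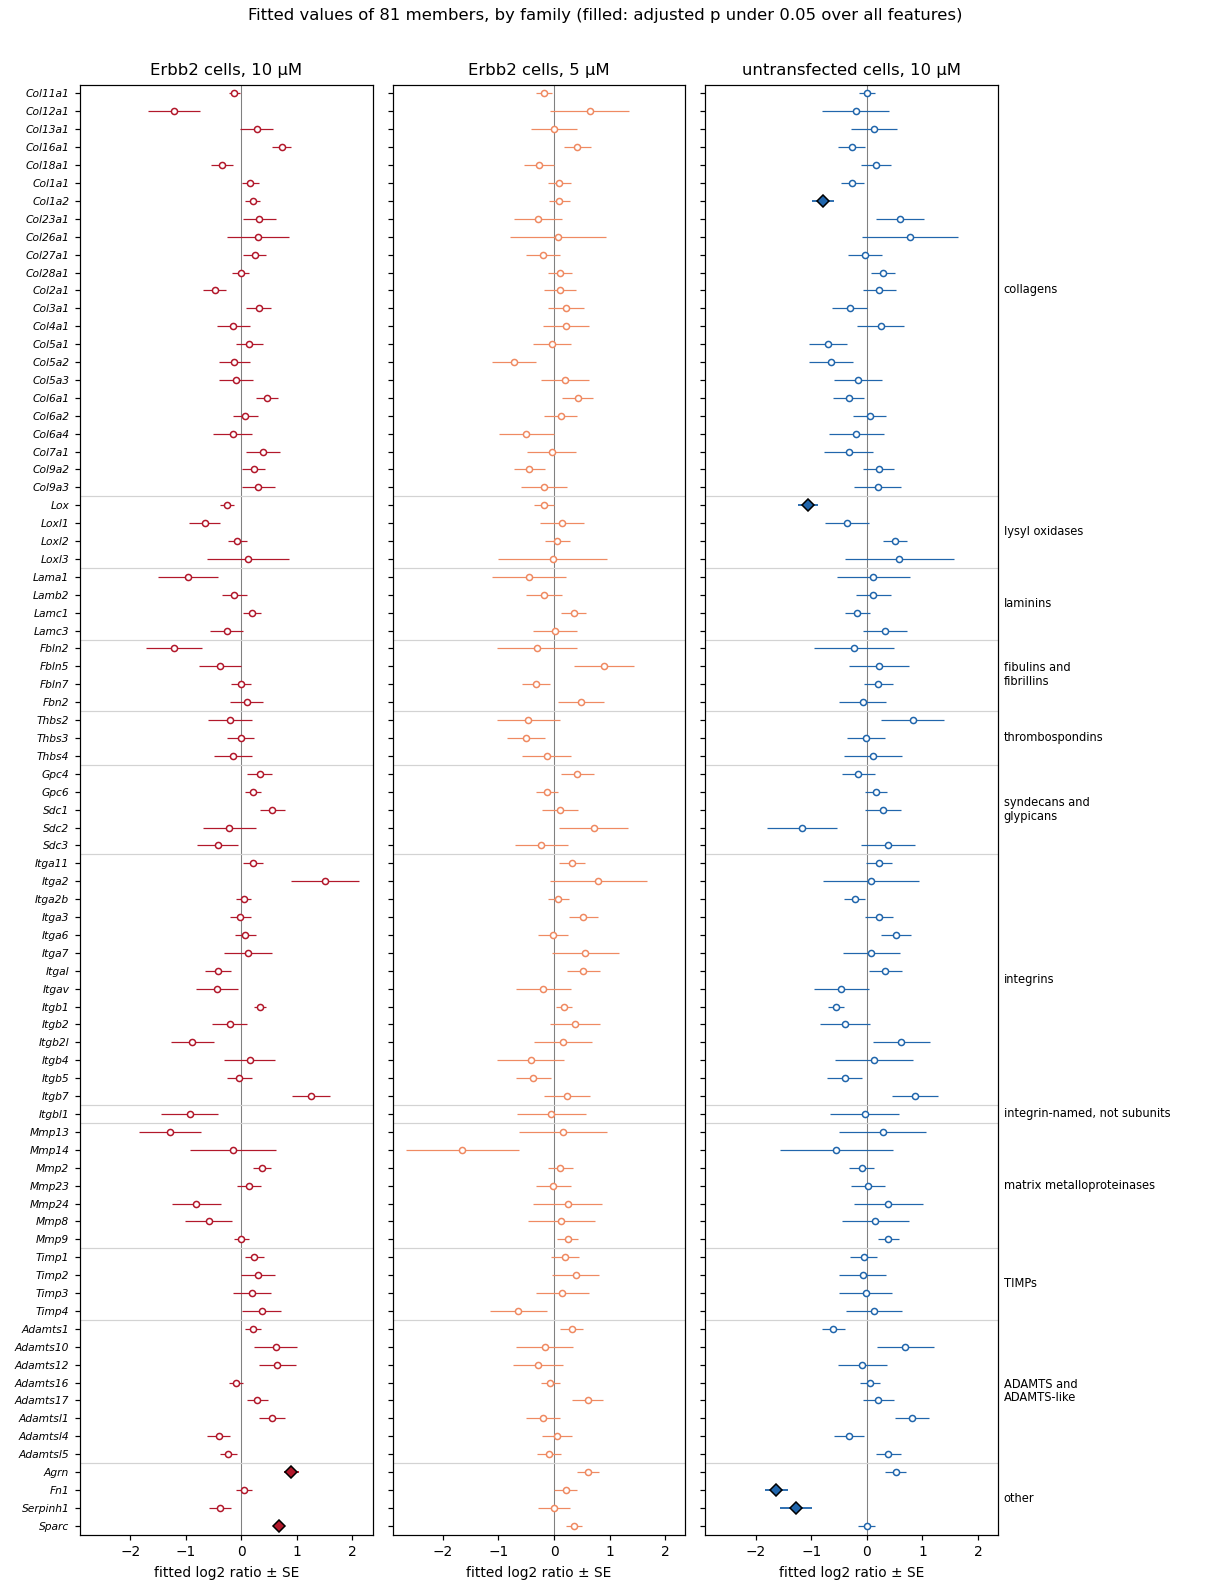
Fitted log2 ratios of all 81 tested members by family, with bars for the standard error and filled symbols for those that passed, in Erbb2 cells at 10 µM, Erbb2 cells at 5 µM and untransfected cells at 10 µM. Most members lie near 0 in each group, with quartiles of -0.22 and 0.29 in Erbb2 cells at 10 µM, and Fn1 is the lowest member in untransfected cells.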

How the data were processed

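RNA of treated and untreated cells was compared on 16 two-colour cDNA arrays, grouped by titles and source names. The deposited values are log2 ratios, centred on each array by the authors. The base was read from the values: 1 repeated highest value per array, set aside as a placeholder, lies log2 of 100000 above another repeated value, read as a ratio of 1 (tolerance 0.0011). No source used here gives the image analysis, the background correction or the reason for missing values. The label protocol speaks of organs and a pool of animals and was not used for grouping. No column of sample values was unused (0).

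The values were read as Cy5 over Cy3 and arrays with treated RNA in Cy3 were turned. Probes needed values on 3 of 4 or 6 of 8 arrays of each group and 1 array of each dye arrangement, leaving 14813 of 20355. Probes of 1 gene were averaged, giving 12420 features. An array gave 16153 to 18507 ratios, and precision is limited by how many arrays a group has. limma 3.58.1 in R 4.3.3, with version 1.17.8 of data.table, fitted 1 linear model over all 16 arrays with 3 group coefficients and a shared dye term, followed by eBayes. Tests were two-sided. P-values were adjusted by Benjamini-Hochberg over the 12420 features, with a threshold of 0.05. The dye term itself passed for 0 features. The fit was tested on simulated data before use. Symbols came from the platform annotation, and all 104 members matched the RefSeq gene table by Entrez ID. Promoters are RefSeq's.

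Candidates for naming were members past the threshold, in each group the 5 highest and 5 lowest with 1 sign on every array, the 5 smallest p of each contrast, and fixed names. Not all of these candidates are named above. Members at the ends of a family and genes of other lists were chosen after their values were seen. Members, lists and tests were chosen with earlier results of these data known. Alternatives changed direction, dye label, dye term, arrays in the fit, filters, placeholders, scaling, weights, threshold, probe averaging and arrays left out.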

Additional observations from a re-analysis of the deposited data

Results flagged for a closer look

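Col1a2 on array 3 of Erbb2 cells at 10 µM was 1.083, and its gap to the next array was 0.575 of the group's range. It was the 1 outlying array in 21 tests of single arrays, where chance gives about 5%.

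The response of Fn1 differed between Erbb2 and untransfected cells by 1.677 on the log2 scale, and that of Itgb1 by 0.882, both by limma's test of the difference. The direction of both rests on Cy5 being the numerator and on the dye labels of the untransfected arrays.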

How the results depend on the processing

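The count of members passing in Erbb2 cells at 10 µM (2 of 81) was 4 of 50 with a value required on all 16 arrays. Agrn, Col16a1 and Sparc were then higher and Lox lower, beside 247 of 7148 features passing. The count was 0 with each group fitted on its own arrays, with no array turned, or against a 1.2-fold change. Against a 1.2-fold change 33 of 12420 features passed. At 5 µM the 0 became 1 (Agrn) with array weights, where 147 of 12420 features passed in place of 26. In untransfected cells the 4 became 0 on own arrays, 0 with no array turned and 2 against a 1.2-fold change, where 154 features passed. The difference between lines had 2 members and 101 of 12420 features passing. It gave 4 members, all higher, with all 16 arrays required (189 of 7148 features) and after quantile normalization (164 of 12420). With the untransfected dye labels exchanged it gave 1 member higher and 3 lower (351 features). The count was 1 with a looser filter (81 of 14615 features), 1 on the arrays of both groups alone (41), 1 against a 1.2-fold change (45) and 0 with no array turned (0). Leaving out 1 array gave 2 in every case for Erbb2 cells at 10 µM, 0 at 5 µM, 2 to 3 in untransfected cells and 1 to 3 for the difference between lines. Features passing were then 103 to 142, 5 to 6, 213 to 259 and 60 to 105 in the same order. With no array turned Agrn became -0.002 and Sparc -0.218 in Erbb2 cells at 10 µM, and Fn1 0.017 in untransfected cells. With the dye labels exchanged, Fn1 was 1.625, Lox 1.056, Serpinh1 1.275 and Col1a2 0.785 in untransfected cells, and the differences between lines were -1.573 for Fn1 and -0.216 for Itgb1. Over all features, 22, 0 and 0 passed in the 3 groups on own arrays, and 2, 0 and 4 with no array turned, in place of 157, 26 and 339. The cause of these changes was not tested, beyond the fewer features or arrays that a setting leaves.

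Whether replicate numbers pair the arrays could not be told. The correlation of same-numbered arrays ran from -0.0118 to 0.0155 over 10 pairs. Arrays of 1 group with the same dye themselves had a mean correlation of only 0.0257 in Erbb2 cells at 10 µM and 0.0516 at 5 µM. A value near 0 therefore does not exclude pairing. With the replicate number as a block, 0 of 12420 features passed for the difference between lines, members included. That fit gave 1.361 for Fn1 (adjusted p = 0.969, limma) and 0.603 for Itgb1 (adjusted p = 1, limma). Without arrays 3, 5 and 6 of Erbb2 cells at 10 µM the Itgb1 difference had an adjusted p of 0.0969 in limma. The 2 members then passing between the lines were Col1a2 and Fn1, beside 75 of 12420 features. Signal over background is unknown, so what dim probes limit could not be measured.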
